A study of Mus musculus with 23 samples.

Results

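The urea cycle is the liver's route for turning ammonia and the nitrogen of amino acids into urea, and 10 genes of this route and of its ammonia supply were examined in the livers of mice with and without hepatic Cpt1a. The 10 were chosen by gene symbol, and all 10 are listed and tested in both deposited tables, 1 for each sex, which together hold 26522 genes. Cps1, Otc, Ass1, Asl and Arg1 encode the 5 enzymes of the cycle, Nags makes its activator, Slc25a13 and Slc25a15 carry its intermediates across the inner mitochondrial membrane, and Glul and Gls2 fix and release ammonia as glutamine. Polyadenylated liver RNA was sequenced in 23 libraries: 5 control and 6 LKO libraries of males, and 6 control and 6 LKO libraries of females. All groups, controls included, carried the B100 background, were fed the diet named WD for 16 weeks, and were taken in the fed state. LKO stands for ablation of Cpt1a in the liver. The allele, the driver of the ablation and the age of the animals are not given in the sources used here. Replicates carry the numbers of the labels, which in control males are 1, 2, 3, 4 and 6. The labels number the libraries within a group and do not say that each came from its own animal, so p-values measure the spread between these libraries, which may be technical.

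In the cycle, carbamoyl phosphate made from ammonia in the mitochondrion joins ornithine to form citrulline, citrulline joins aspartate in the cytosol, and the product is split to arginine and then to urea and ornithine. The enzymes are most abundant in hepatocytes around the portal vein, as is glutaminase 2, which feeds ammonia into the cycle. Glutamine synthetase sits in a thin layer of hepatocytes around the central vein and captures the ammonia that escapes. Transcription of the urea cycle genes is known to respond to glucagon, glucocorticoids and dietary protein, through factors that include the C/EBP family.

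Total counts ran from 14224665 to 18361717 in control males, 15370271 to 16689307 in LKO males, 15174756 to 17129450 in control females and 15434065 to 19626662 in LKO females. Cpt1a checked the labels: its level in CPM (counts relative to the library's total, scaled by TMM factors over all 23 libraries) was 301 to 426 in control males and 41.7 to 95.8 in LKO males, and 287 to 436 in control females and 62.3 to 87.6 in LKO females. Its log2 fold change was -2.50 (SE 0.19, edgeR adjusted p 9.99e-05) in males and -2.35 (SE 0.12, edgeR adjusted p 3.69e-08) in females. The labelled tissue was checked with 6 hepatocyte markers, which summed to 48850 to 88050 CPM in a library, against at most 978 CPM for 6 macrophage markers, 502 for 6 stellate cell and fibroblast markers, 243 for 6 endothelial markers and 31.8 for 6 lymphocyte markers. No listed marker of any of these types was at 0 throughout a group. In bulk liver, fewer cells of a type and less RNA per cell cannot be told apart. Control male replicate 4 stood apart from the other control males, with the lowest total count and the lowest TMM factor, 0.8755. It also held the highest value of 9 of the 10 members among control males, and the lowest of the tenth, Glul.

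Promoter sequence was available for 6 of the 10 members in the RefSeq table for GRCm38.p6. The 250 bases before the start site are shown for 4 members that bear on the results. Ass1 and Slc25a15 had 2 of the lowest p-values in LKO females. Otc varied with both over all libraries, once the mean of each group was subtracted. With Slc25a15 its Pearson r was 0.872 within males and 0.196 within females. Glul had an r of -0.395 with Ass1 and of -0.29 with Slc25a15 over all libraries. Neither reached an adjusted permutation p under 0.05 (0.123 and 0.261). With Slc25a15 the r of Glul was -0.012 without control male replicate 4 and control female replicate 6. It was -0.647 within males and 0.103 within females. Sequences run 5' to 3' on the strand of the gene. Capitals mark GC boxes (GGGCGG on either strand) and CCAAT boxes (CCAAT on either strand).
Ass1 (chr2:31470020-31470269, plus strand): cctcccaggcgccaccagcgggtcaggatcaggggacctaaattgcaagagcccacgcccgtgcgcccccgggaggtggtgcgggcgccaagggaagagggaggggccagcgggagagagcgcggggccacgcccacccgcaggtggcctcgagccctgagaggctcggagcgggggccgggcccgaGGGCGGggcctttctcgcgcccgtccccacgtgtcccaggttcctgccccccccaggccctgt
Slc25a15, the upstream of its 2 listed starts (chr8:22398622-22398871, minus strand): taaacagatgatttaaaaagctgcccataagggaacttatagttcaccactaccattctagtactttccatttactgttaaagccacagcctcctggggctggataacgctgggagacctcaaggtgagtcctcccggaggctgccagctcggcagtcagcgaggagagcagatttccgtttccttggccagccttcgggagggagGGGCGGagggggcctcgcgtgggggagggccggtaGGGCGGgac
Otc (chrX:10252055-10252304, plus strand): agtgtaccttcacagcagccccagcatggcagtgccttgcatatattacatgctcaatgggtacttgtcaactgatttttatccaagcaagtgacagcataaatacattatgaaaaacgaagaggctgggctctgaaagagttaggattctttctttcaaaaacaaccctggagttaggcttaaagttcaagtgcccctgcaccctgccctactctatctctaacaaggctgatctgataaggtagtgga
Glul (chr1:153899679-153899928, plus strand): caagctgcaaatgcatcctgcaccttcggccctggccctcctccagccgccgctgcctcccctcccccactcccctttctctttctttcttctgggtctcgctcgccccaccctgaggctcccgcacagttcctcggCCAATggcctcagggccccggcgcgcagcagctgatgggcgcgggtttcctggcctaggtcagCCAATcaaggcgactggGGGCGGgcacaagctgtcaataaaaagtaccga
The Ass1 window is 75.6 percent G and C with 1 GC box, and the Slc25a15 window shown is 57.6 percent G and C with 2. The window of the other Slc25a15 start is 80.4 percent G and C with 5 GC boxes. The Otc window is 43.6 percent G and C and holds neither motif, and that of Glul is 64.8 percent G and C with 1 GC box and 2 CCAAT boxes. Of the 7 member windows, 5 hold a GC box and 2 a CCAAT box. Over all 32851 promoter windows of this length, 32.7 percent hold a GC box and 33.8 percent a CCAAT box. The median G and C content of all windows is 52.4 percent. The full cAMP response element TGACGTCA, in 1.55 percent of all windows, and the C/EBP palindrome TTGCGCAA, in 0.164 percent, were in none of the 7 windows of the 6 members. Both strands were searched, and none of the 4 motifs contains another. The member windows differ in base content, and none of these 4 motifs is in all of them.

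Levels of different genes were compared as CPM per kilobase of the gene length in the tables. In control males Ass1, which joins citrulline to aspartate, was the most abundant member at 1010 ± 315 CPM per kilobase (SD, n = 5), followed by Arg1, the enzyme that releases urea, at 471 ± 90.04 and Glul at 330.5 ± 46.4. Cps1, which makes carbamoyl phosphate and takes in ammonia, was at 158 ± 92.7 and Asl, which splits argininosuccinate, at 104 ± 27.9. Gls2 at 70.1 ± 20.8 and Otc, which makes citrulline, at 69.98 ± 19.2 CPM per kilobase differed by less than their SD. The same holds for the aspartate and glutamate carrier Slc25a13, at 37.1 ± 3.43 CPM per kilobase, and the ornithine carrier Slc25a15, at 35.01 ± 11.1. Nags was lowest at 25.1 ± 3.95. The first 5 ranks and the last were the same in all 4 groups. In control females Cps1, at 339 ± 117 CPM per kilobase (SD, n = 6), lay within the spread of Glul, at 341 ± 35.5.

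**Figure D1:**
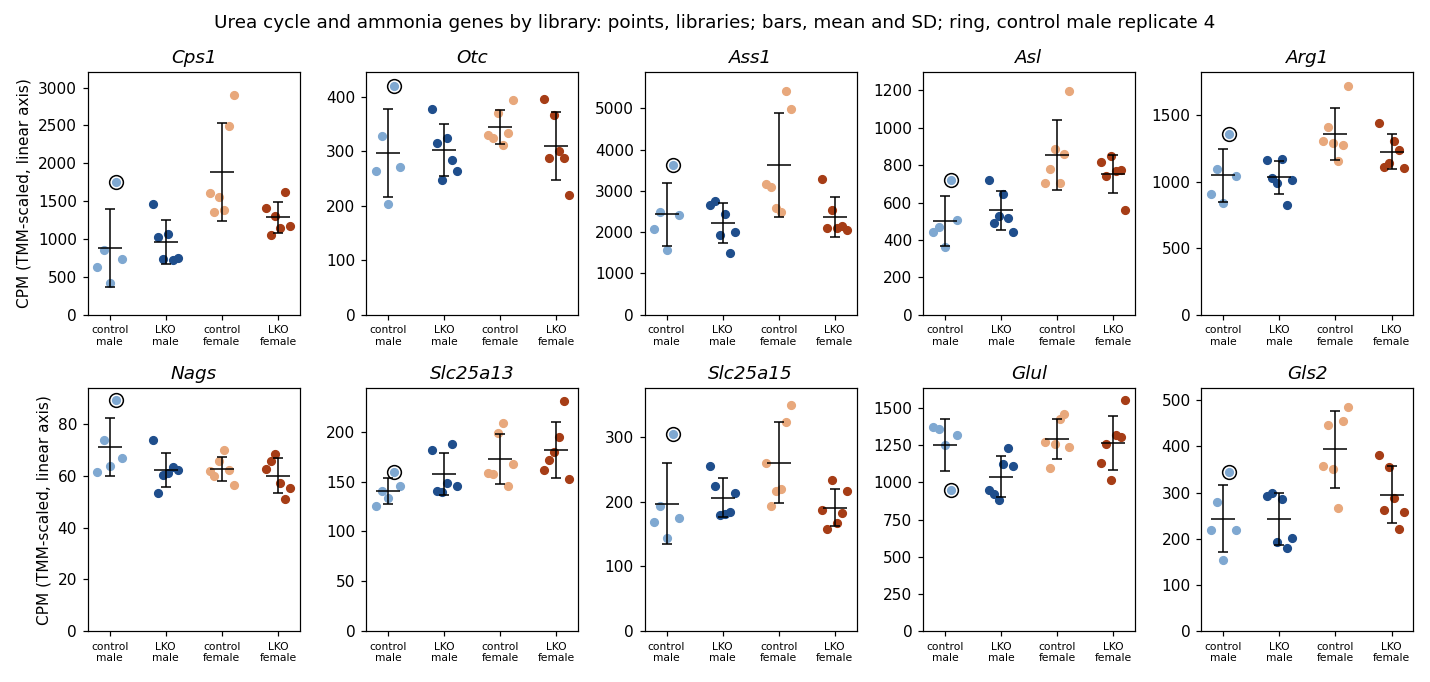
Level of each of the 10 members in every library, in CPM on a linear axis that starts at 0. Points are libraries in the 4 groups, bars the mean and SD, and the ring marks control male replicate 4, which lies above the other control males in every panel but Glul.

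Loss of Cpt1a was compared first in females. None of the 10 members was called by edgeR at an adjusted p under 0.05, where 1.42 percent of the 13684 genes tested were called. At an unadjusted p under 0.05 there were 4, Cps1, Ass1, Slc25a15 and Gls2, all with lower means in LKO females, where 7.33 percent of all genes had such a p with a lower mean and 8.30 percent with a higher one. DESeq2 also called none of the 10, with 4 at an unadjusted p under 0.05. It called 2.23 percent of 24889 genes, a larger set taken without the count filter. The log2 fold change was below 0 for 9 of the 10 members, with a median of -0.17 against 0.0051 for all genes tested. In no member were the 2 female groups free of overlap, which they were in 1.58 percent of genes.

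Ass1 (chromosome 2, 31360219 to 31410684 in the coordinates of the tables, plus strand) ran from 2499 to 5412 CPM in control females with a median of 3122, and from 2048 to 3289 CPM in LKO females with a median of 2134. In all, 4 LKO libraries were below all controls, and control female replicates 5 and 6, at 5412 and 4986 CPM, were far above the other 4 controls. The log2 fold change was -0.61 (SE 0.20, 95 percent interval -1.04 to -0.18, p 0.00879, edgeR adjusted p 0.1485). Leaving out single libraries gave -0.72 to -0.46, the last without control female replicate 5. With any 1 of the 12 female libraries removed, Ass1, Cps1, Slc25a15 and Gls2 still had an unadjusted p under 0.05, and none was called. Control female replicates 5 and 6 were the 2 highest controls for each of these 4 genes. No fit left out both, so their joint part in the lower values was not tested.

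Cps1 (chromosome 1, 67162185 to 67270418, plus strand), the entry enzyme, ran from 1353 to 2902 CPM in control females with a median of 1585, and from 1049 to 1623 CPM in LKO females with a median of 1240. Again control replicates 5 and 6 were highest, at 2491 and 2902 CPM, and 4 LKO libraries lay below all controls. The log2 fold change was -0.55 (SE 0.19, interval -0.96 to -0.15, p 0.0108, edgeR adjusted p 0.165), and -0.38 without control female replicate 6.

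The ornithine carrier Slc25a15 (chromosome 8, 22865567 to 22888613, minus strand) returns ornithine to the mitochondrion for the Otc reaction. It ran from 193 to 350 CPM in control females with a median of 239.9, and from 158 to 234 CPM in LKO females with a median of 185. This was a log2 fold change of -0.45 (SE 0.15, interval -0.77 to -0.13, p 0.00852, edgeR adjusted p 0.146), the lowest adjusted p of the 10 in this comparison. Control replicates 5 and 6 were again highest, at 323 and 350 CPM, and the log2 fold change was -0.34 without control female replicate 6.

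Gls2 (chromosome 10, 128030326 to 128045873, plus strand), the liver glutaminase, ran from 266 to 486.5 CPM in control females with a median of 401, and from 222 to 382 CPM in LKO females with a median of 276. Of the LKO libraries 3 were below all controls. Its log2 fold change was -0.42 (SE 0.16, interval -0.76 to -0.076, p 0.0197, edgeR adjusted p 0.2201), and -0.34 without LKO female replicate 5. Control replicates 5 and 6 were highest here too, at 455 and 486.5 CPM, with control replicate 2 at 446 CPM.

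The other 6 members had female log2 fold changes between -0.19 and 0.075, with edgeR adjusted p from 0.552 to 0.925. Single libraries moved some of these by over 1.5 times. Without control female replicate 6 Asl went from -0.19 to -0.064 and Arg1 from -0.15 to -0.068, and without LKO female replicate 6 Asl was at -0.11 and Otc went from -0.15 to -0.069. Otc was at -0.23 without LKO female replicate 1. Nags ran from -0.10 without LKO female replicate 3 to -0.017 without LKO female replicate 5, and Slc25a13 and Glul, both near 0, changed sign. Asl was at 855 ± 185 CPM in control and 751 ± 101.5 CPM in LKO females (SD, n = 6 each), Arg1 at 1360 ± 195 and 1227 ± 133, and Otc at 344 ± 31.2 and 309 ± 62.95. Nags was at 62.7 ± 4.66 and 60.1 ± 6.67 CPM, Slc25a13 at 173 ± 25.2 and 182 ± 28.1, and Glul at 1290 ± 134 and 1264 ± 184. Their intervals reach no further than a log2 value of -0.48 below and 0.32 above 0, the first for Asl and the second for Slc25a13. The authors' deposited table for females gives adjusted p-values of 0.0515 for Ass1, 0.0675 for Cps1, 0.0696 for Slc25a15 and 0.141 for Gls2, and holds 554 genes under 0.05, none of them among the 10.

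Ass1 has a near-identical copy in the tables. Gm5424, a processed pseudogene, matches the Ass1 transcript at 1234 of 1240 aligned bases (99.5 percent) in GENCODE M21, and it was counted at 277 to 934 CPM, 16.7 to 21.5 percent of Ass1 in the same library. Reads could have been split between them, so the level of Ass1 is uncertain. With the counts of both added, an alternative chosen after seeing the data, the female log2 fold change was -0.60 (edgeR adjusted p 0.146) and the male one -0.14 (adjusted p 0.832), and Gm5424 alone gave -0.57 (adjusted p 0.130) in females. A pseudogene of Glul, Glns-ps1, was at most 0.937 CPM.

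In males the same comparison found no member called by edgeR, where 1 of 13805 genes tested, 0.00724 percent, was called and was Cpt1a. Glul was the only one of the 10 at an unadjusted p under 0.05, where 12.5 percent of all genes were, 7.22 percent lower and 5.24 percent higher. DESeq2 likewise called none, against 0.434 percent of 24422 genes without the count filter, with 1 member at that p. Of the members 5 had a log2 fold change above 0 and 5 below, with a median of 0.00975 against 0.010 for all genes tested. None had groups free of overlap, which 1.74 percent of genes had.

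Glul (chromosome 1, 153775690 to 153785469, plus strand), the enzyme that makes glutamine from ammonia and glutamate, was at 1373, 1360, 1250, 948 and 1319 CPM in control male replicates 1, 2, 3, 4 and 6. In LKO males it ran from 882 to 1231 CPM with a median of 1030. Of the 5 controls 4 were above all LKO males, and control replicate 4 lay among them. The log2 fold change was -0.27 (SE 0.12, interval -0.54 to -0.012, p 0.0418, edgeR adjusted p 0.383), and -0.36 without control male replicate 4 (p 0.00427, edgeR adjusted p 0.296). Its unadjusted p was above 0.05 without control male replicate 1, 2, 3 or 6 or LKO male replicate 1, 2, 3 or 6. Nags was at -0.24 (p 0.0329, edgeR adjusted p 0.401) without LKO male replicate 1, where it was the 1 member at such a p. In the authors' deposited table for males Glul is at -0.28 with an adjusted p of 0.227.

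Cps1 was at 625.2, 860, 422, 1754 and 732 CPM in control male replicates 1, 2, 3, 4 and 6, and from 728.5 to 1468 CPM with a median of 887 in LKO males. Replicate 4 alone was above every LKO male. The log2 fold change was 0.13 (SE 0.31, interval -0.53 to 0.79, edgeR adjusted p 0.9075), the widest interval of the 10. Without control male replicate 4 it was 0.54 (p 0.0347, edgeR adjusted p 0.4125). It was -0.039 without control male replicate 3 and -0.028 without LKO male replicate 1, so its sign in males rests on single libraries.

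Other members moved with the same library. Leaving out control male replicate 4 gave log2 values of 0.32 for Asl (p 0.0406), 0.27 for Slc25a15 (p 0.0394), 0.20 for Slc25a13 and 0.18 for Otc, against 0.16, 0.066, 0.16 and 0.026 with all libraries, and edgeR adjusted p from 0.4205 to 0.644. Ass1 went from -0.14 to 0.048, Arg1 from -0.022 to 0.085 and Gls2 from -0.0068 to 0.15 in that fit, and Nags from -0.19 to -0.099. In no member was an adjusted p under 0.05 reached. Of the 11 fits that left out 1 male library, the sign of Ass1 turned only in that without control male replicate 4. That of Arg1 turned in 3, without control male replicate 2 or 4 or LKO male replicate 5, and that of Gls2 in 5, without control male replicate 2 or 4 or LKO male replicate 3, 5 or 6.

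**Figure D2:**
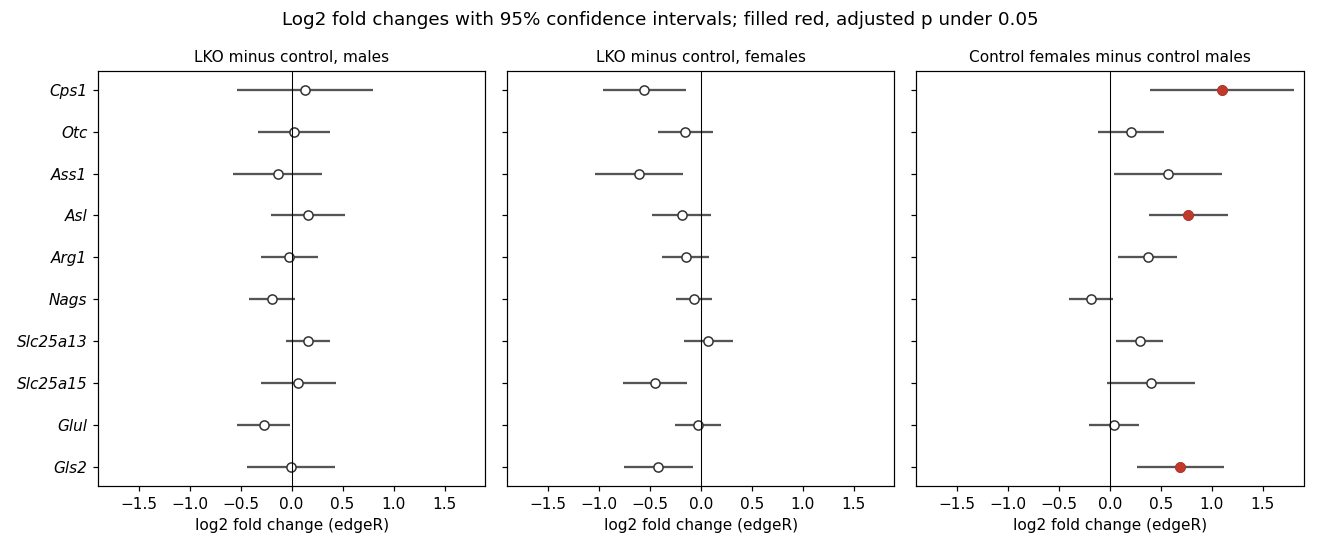
Log2 fold changes from edgeR with 95 percent intervals for the 10 members in 3 comparisons, LKO minus control in males, LKO minus control in females, and control females minus control males. Filled red points, Cps1, Asl and Gls2 in the last panel, have an adjusted p under 0.05.

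Whether the genotype effect differed between the sexes was tested as an interaction over all 23 libraries. No member was called, and of 14503 genes tested 0 percent were. Slc25a15 had the lowest p of the 10, at -0.51 on the log2 scale for the female minus the male effect (SE 0.24, p 0.0413, edgeR adjusted p 0.367). It was the 1 member with an unadjusted p under 0.05, where 5.94 percent of all genes had such a p in that direction, 6.98 percent in the other and 12.9 percent in either. That p of Slc25a15 was above 0.05 without control male replicate 1, 2, 3 or 6 or LKO male replicate 1, 2 or 6. The same held without control female replicate 1, 5 or 6 or LKO female replicate 1, 2, 4 or 5. The largest difference was that of Cps1, -0.68 (SE 0.38, interval -1.47 to 0.11, edgeR adjusted p 0.462). DESeq2 called 0 members, against 0.385 percent of 22831 genes without the count filter, with 1 member at an unadjusted p under 0.05. Without control male replicate 4 the difference was -1.10 for Cps1 (p 0.00206, edgeR adjusted p 0.13) and -0.73 for Slc25a15 (adjusted p 0.124), and 6 members were at an unadjusted p under 0.05 and 0 were called. The lower values of Cps1, Ass1, Slc25a15 and Gls2 in LKO females were therefore not shown to differ from the male values.

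Control livers of the sexes were set side by side on the raw counts of both tables. Each sex has its own table, and any difference in preparation or counting between the tables cannot be told apart from one between the sexes. Among the 10 members edgeR called 3 as higher in control females, Asl, Gls2 and Cps1, and 0 as lower, where 2466 of 13699 genes were called, 8.80 percent higher and 9.20 percent lower. DESeq2 called these and Arg1, against 13.3 percent of 22672 genes without the count filter. At an unadjusted p under 0.05 there were 6 members, all higher in females, where 33.1 percent of all genes were, 16.7 percent higher and 16.5 percent lower. The median over the 10 was 0.39 on the log2 scale against 0.0044 for all genes tested, with 9 of 10 above 0. The groups overlapped in all 10, and 10.3 percent of genes had none.

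Asl (chromosome 5, 130040099 to 130058088, minus strand) was at 441, 468, 362, 722 and 508 CPM in control male replicates 1, 2, 3, 4 and 6, and from 702 to 1198 CPM with a median of 819 in control females. Of 6 females 4 were above all males, and the overlap came from control male replicate 4. On the log2 scale control females exceeded control males by 0.77 (SE 0.18, edgeR adjusted p 0.0108), and its call held in all 11 fits that left out 1 library.

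Gls2 was at 219, 279, 154.5, 345.5 and 219.5 CPM in the control males in the same order, and 5 of 6 control females were above all of them. Its log2 difference was 0.69 (SE 0.20, edgeR adjusted p 0.028). Cps1 differed by 1.10 (SE 0.33, interval 0.39 to 1.81, edgeR adjusted p 0.0341), from a mean of 879 ± 515 CPM in males (SD, n = 5) to 1883 ± 651 CPM in females (SD, n = 6), with 2 of 6 females above all males.

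These calls depended on single libraries. That of Cps1 was lost without control male replicate 1, 2, 3 or 6 or control female replicate 5 or 6. That of Gls2 was lost without control male replicate 1, 3 or 6 or control female replicate 2, 5 or 6. Leaving out control male replicate 4 instead gave 8 calls, all higher in females, which added Otc, Ass1, Arg1, Slc25a13 and Slc25a15, with Cps1 at 1.51 (edgeR adjusted p 0.00169). Glul and Nags were not called in that fit or with all libraries. Glul differed by 0.043 (SE 0.11, interval -0.20 to 0.29) and Nags by -0.18 (SE 0.10, interval -0.40 to 0.031). Hepatocyte markers summed to 76120 to 88050 CPM in control females and 51150 to 72590 CPM in control males, with LKO females at 51310 to 81560 and LKO males at 48850 to 64790, and the part of this in the differences was not tested.

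Variation within groups was shared by some of the members and not by others. In log2 CPM with the mean of each group subtracted, control male replicate 4 was the highest control male for 9 members and replicate 3 the lowest for 7. In control females replicate 6 held the highest value of 6 members. In LKO females replicate 1 held the highest value of 4 members and replicate 6 the lowest of 5.

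**Figure D3:**
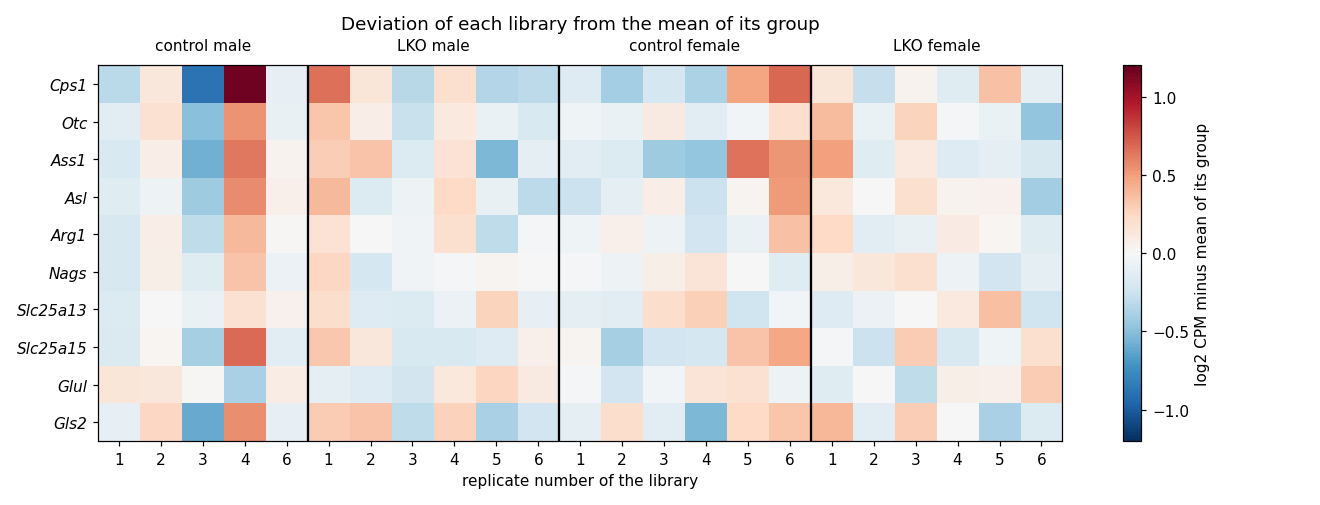
Deviation of each library from its group mean in log2 CPM, for the 10 members in rows and the 23 libraries in columns, ordered by group and replicate number. Red columns in control male replicate 4 and control female replicate 6 and the blue column in control male replicate 3 show 9 members highest, 6 members highest and 7 members lowest of their group, while Glul has the opposite colour in control male replicate 4.

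Of 45 pairs of members, 22 had a Pearson r over 0.5 across the 23 group-centred libraries, 12 had an r below 0, and 24 had a permutation p under 0.05 after Benjamini-Hochberg adjustment over the 45, from 100000 permutations within groups. Cps1 and Ass1 had a Pearson r of 0.849 (permutation p 6e-05, adjusted p 0.000525) and a Spearman rho of 0.874 (permutation p 2e-05, adjusted p 0.0003). Without the 2 libraries farthest in Cps1, control male replicate 4 and control female replicate 6, r was 0.80, and it was 0.916 within the 11 males and 0.81 within the 12 females. Ass1 and Gls2 had r 0.869 (permutation p 1e-05, the smallest these permutations can give, adjusted p 0.00045) and rho 0.845 (permutation p 2e-05, adjusted p 0.0003), 0.867 without the 2 farthest, 0.953 within males and 0.787 within females. Cps1 and Otc had r 0.765 (permutation p 7e-05, adjusted p 0.000525) and rho 0.756 (permutation p 4e-05, adjusted p 0.00045), with 0.671 without the 2 farthest, 0.975 within males and 0.369 within females.

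Glul went the other way from Otc, with r -0.552 (permutation p 0.0207, adjusted p 0.0423) and rho -0.46 (permutation p 0.0402, adjusted p 0.0822), -0.486 without the 2 farthest, -0.413 within males and -0.743 within females. With Cps1 it had r -0.331 (permutation p 0.173, adjusted p 0.236) and rho -0.205 (permutation p 0.379, adjusted p 0.533), and -0.0538 without the 2 farthest libraries. Slc25a13 had no pair with an adjusted p under 0.05, and Nags had 1, with Otc (r 0.582, permutation p 0.0181, adjusted p 0.0388, rho 0.427, adjusted p 0.129 for rho, r 0.406 without the 2 farthest). All these pairs share their libraries and their scaling, the share of correlated pairs among other genes was not computed, and the part of any 1 source in this was not tested.

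**Figure D4:**
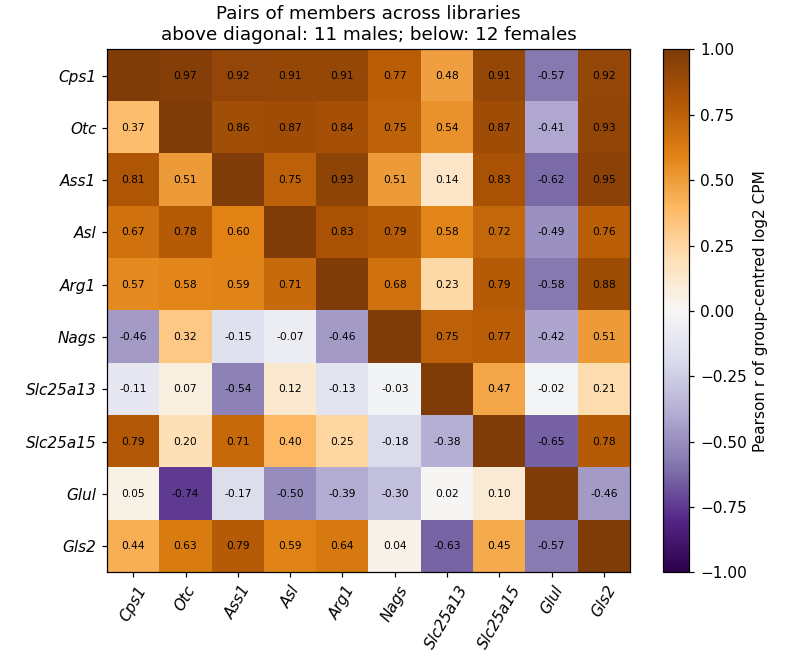
Pearson r of group-centred log2 CPM for each pair of the 10 members, within the 11 male libraries above the diagonal and the 12 female libraries below it. Values among Cps1, Otc, Ass1, Asl, Arg1, Slc25a15 and Gls2 are above 0 in both sexes, 0.724 to 0.975 among males and 0.196 to 0.81 among females.

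Among 13392 other genes tested in both tables, those most like Cps1 over the 23 group-centred libraries were Paics, an enzyme of purine synthesis (r 0.931), Cyp2c70, a bile acid hydroxylase of mouse liver (r 0.918), and Cfhr4 (r 0.914). Those most like Glul were Cnnm2 (r 0.837), the adrenergic receptor gene Adra1a (r 0.802) and Ppp2r1b, a subunit of protein phosphatase 2A (r 0.789). For Gls2 they were Tmem86b, a lysoplasmalogenase (r 0.875), Ass1 itself (r 0.869) and Gm5424 (r 0.844). These are descriptions of the best of many genes and carry no p.

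Other genes, of nitrogen metabolism, of its regulators with glucagon targets, and of liver zonation, were described as 5 lists without the members. Like the members, these lists were chosen with earlier results known. Over all genes tested, edgeR called 0.00724 percent in males, which was Cpt1a alone, and 1.42 percent in females. Ammonia and glutamate handling, 22 genes of transamination, glutamate oxidation and transport, had 0 called of 20 tested in males and 0 of 19 in females. Its lowest p-values belonged in males to the arginine transporter Slc7a2 (log2 fold change 0.25, edgeR adjusted p 0.455), Gpt2 (0.31, adjusted p 0.497) and Slc25a12 (0.16, adjusted p 0.528). In females they belonged to Aqp9, a channel that passes glycerol and urea (-0.28, adjusted p 0.103), the proline oxidase Prodh (-0.29, adjusted p 0.216) and Mdh2 (0.18, adjusted p 0.291). The list median was 0.028 in males and -0.09 in females.

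Amino acid breakdown, 27 genes, had 0 called in either sex, against 0.00724 percent of all genes in males and 1.42 percent in females. In LKO females 23 of 27 had a log2 fold change below 0, with a median of -0.26 against 0.0051 for all genes, and 12 had an unadjusted p under 0.05 and a lower mean, as had 7.33 percent of all genes. The lowest p-values were those of Haao, of the kynurenine pathway (-0.38, edgeR adjusted p 0.0614), and of the histidine-degrading Hal (-0.68, adjusted p 0.0957) and Amdhd1 (-0.56, adjusted p 0.118). In males the median was -0.028, and 0.12 without control male replicate 4, and the lowest p-values were those of Haao (-0.28, adjusted p 0.385), the betaine methyltransferase Bhmt (0.43, adjusted p 0.387) and Tdo2 (0.32, adjusted p 0.391).

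Of 12 regulators and glucagon targets, 0 were called in either sex, against 0.00724 percent of all genes in males and 1.42 percent in females. In males Cebpa was at -0.28 (SE 0.086, edgeR adjusted p 0.274), Pck1 at 0.34 (adjusted p 0.374) and Cebpb at -0.44 (adjusted p 0.375). In females Klf15, a regulator of amino acid breakdown, was at -0.47 (SE 0.13, adjusted p 0.0905), Hnf4a at -0.27 (adjusted p 0.35) and Foxo1 at -0.34 (adjusted p 0.456).

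Zonation lists were read beside Glul, which marks the central vein, and the cycle enzymes, which mark the portal side. Of 17 pericentral genes 1 was called in LKO females, where 0.490 percent of all genes were called lower and 0.928 percent higher. It was Cyp1a2, a xenobiotic-metabolising enzyme, which was lower (log2 fold change -0.82, SE 0.19, edgeR adjusted p 0.042). Nkd1 was at -0.41 (adjusted p 0.0573) and Znrf3 at -0.29 (adjusted p 0.247), and the list median was -0.19. The Cyp1a2 call was lost without control female replicate 1, 5 or 6 or LKO female replicate 2, 3, 4 or 6, with adjusted p up to 0.105. In males 0 of 17 were called, against 0.00724 percent of all genes. There the glutamate transporter Slc1a2 was at -0.64 (SE 0.16, adjusted p 0.245), Gstm3 at 1.19 (adjusted p 0.379) and Slc13a3 at 0.25 (adjusted p 0.408).

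Of 10 periportal genes 2 rose in LKO females, Apoa4, a lipoprotein component (1.23, SE 0.17, edgeR adjusted p 0.00289), and the lipid droplet protein Hsd17b13 (0.46, SE 0.10, adjusted p 0.0384), where 0.928 percent of all genes were called higher and 0.490 percent lower. Pigr was at -0.32 (adjusted p 0.128). Of the 12 fits that left out 1 library, the call of Hsd17b13 was lost in 9 and held only without control female replicate 2 or 3 or LKO female replicate 5, with adjusted p up to 0.0935. That of Apoa4 was lost in none. In males 0 of 10 were called, against 0.00724 percent of all genes. There Hsd17b13 was at -0.17 (adjusted p 0.651), Cdh1 at -0.15 (adjusted p 0.859) and Hsd17b6 at -0.14 (adjusted p 0.884).

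The interaction called 0 genes of the 5 lists, as it did 0 percent of all genes tested. The lowest p-values belonged to Aqp9, Slc7a2 and Glud1, to Uroc1, Bhmt and Tdo2, to Klf15, Foxo1 and Pck1, to Cyp1a2, Znrf3 and Slc1a2, and to Hsd17b13, Apoa4 and Pigr in the respective lists, with edgeR adjusted p from 0.167 for Hsd17b13 to 0.52 for Pck1.

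Between control females and control males, where 8.80 percent of all genes were called higher in females and 9.20 percent lower, the ammonia and glutamate list had 6 genes called higher in females and 2 lower of 19 tested. The higher ones were Slc7a2 (0.81), Got1 (0.80), Prodh (0.50), Slc38a4 (0.40), Glud1 (0.38) and Slc25a12 (0.35), and the lower ones were the mitochondrial deacylase Sirt5 (-0.62) and the glutamate carrier Slc25a22 (-0.46). Amino acid breakdown had 6 of 27 higher, among them Hpd (0.84), Mat1a (0.79), Sds (0.70), Uroc1 (0.45) and Dbt (0.41), and 0 lower. Of the 12 regulators 6 were higher, Ppargc1a (1.09), Foxo1 (0.83), Pck1 (0.62), Klf15 (0.49), Hnf4a (0.43) and Nr3c1 (0.41). Pericentral genes had 5 of 17 higher, Notum (0.67), Lgr5 (0.62), Znrf3 (0.50), Slc1a2 (0.47) and Nkd1 (0.41). Periportal genes had 3 of 10 higher, Hsd17b6 (1.24), Ctsc (0.93) and Pigr (0.78), and 4 lower, Apoa4 (-1.998), Cdh1 (-1.16), Cyp2f2 (-0.84) and Hsd17b13 (-0.54). These are log2 differences, and edgeR adjusted p ran from 0.00038 for Mat1a to 0.0491 for Lgr5. Of these 32 calls 15 were lost in at least 1 of the 11 fits that left out 1 library, among them those of Glud1, Got1, Slc25a22, Slc38a4, Sds, Hpd, Dbt, Hnf4a, Nr3c1, Ppargc1a, Klf15, Lgr5, Nkd1 and Notum, with adjusted p up to 0.115.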

How the data were processed

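Liver RNA of 23 libraries was read from 2 deposited tables, 1 for each sex. The deposited raw counts per gene, whole numbers in the files, were the values tested, and unmapped sample columns numbered 0. The same tables hold the authors' normalized signal per library, FPKM values, log2 fold changes and p-values. These came deposited as they are, and of them only the authors' log2 fold changes and adjusted p-values are printed. The submitters' processing notes name HISAT2 2.0.5 and mm39 without a role. The counter, the annotation and the strand setting are not given in the sources used here. Table coordinates did not match GRCm38, so RefSeq sequences carry their own build.

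Counts were tested with edgeR 4.0.16 (filterByExpr, TMM, quasi-likelihood test, Benjamini-Hochberg over all genes tested, adjusted p under 0.05) in R 4.3.3, within each sex, as a sex interaction and between controls. CPM were scaled by TMM over all libraries. The fits within each sex and between controls, but not the interaction, were also run on simulated data. The outcomes of those runs are not given here. Alternatives were DESeq2 1.42.0, other scaling and count filters, a replicate block, a fit of all libraries, and leaving out each library. All 10 members and Cpt1a are named whatever their values. From each list the 3 lowest p-values are named, or every called gene between control sexes (1 of them is not reported here), and for Cps1, Glul and Gls2 the 3 genes of highest Pearson r. Members and lists were chosen with earlier results of these data known.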

Additional observations from a re-analysis of the deposited data

Results flagged for a closer look

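Asl was singled out in both female groups by a test for a sample far from the rest of its group. Control female replicate 6 held the highest Asl level, 1198 CPM, in a group with a median of 819.4 CPM, and LKO female replicate 6 held the lowest, 559.4 CPM, in a group with a median of 770.3 CPM. For each, the gap to the nearest other library was above the 95 percent critical value of Dixon's ratio for the whole range of the group. Of 44 groups of values examined these were 2, and chance alone flags about 1 in 20 groups. Control female replicate 6 was also the highest control female for 6 members, and LKO female replicate 6 the lowest LKO female for 5.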

How the results depend on the processing

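Counts of all genes called depended on the tool and on single libraries. In males 1 gene was called, against 2 with library size alone, 2 with no filter, 3 with at least 10 counts in every sample, 106 with DESeq2, 5 in the fit of all 23 libraries and 1 to 2 when leaving out 1 library. In females 194 were called, against 554 with DESeq2, 94 in the fit of all 23 libraries and 87 to 233 when leaving out 1 library. For the interaction 0 were called, against 88 with DESeq2 and 0 to 17 when leaving out 1 library. Between control sexes 2466 were called, and 1766 to 2947 when leaving out 1 library, with 1 to 8 members called where all libraries gave 3. Libraries of the same replicate number had correlations of -0.284 to 0.364 in males, -0.00177 to 0.126 in females and -0.143 to 0.116 between control sexes. In females 4 of 6 were over 0.1. They were not set against pairs of different numbers, so whether the numbers pair the libraries was not tested. With the replicate block 2 genes were called in males, 334 in females, 0 for the interaction and 991 between control sexes, with 0 members in each. Small values changed sign. In males Arg1 was 0.046 with library size alone and 0.051 with the replicate block, and Gls2 0.063 and 0.089. In females Glul was 0.013 with library size alone. Leaving out 1 library gave ranges in males of -0.039 to 0.54 for Cps1, -0.074 to 0.18 for Otc, -0.25 to 0.048 for Ass1, -0.083 to 0.085 for Arg1, -0.019 to 0.27 for Slc25a15 and -0.12 to 0.15 for Gls2, in females of -0.0017 to 0.13 for Slc25a13 and -0.097 to 0.024 for Glul, and between control sexes of -0.042 to 0.086 for Glul. Over all alternatives the female adjusted p ran from 0.0675 to 0.358 for Cps1, 0.0515 to 0.316 for Ass1, 0.0696 to 0.313 for Slc25a15 and 0.0926 to 0.383 for Gls2. The cause was not tested.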
